A study of Mus musculus with 4 samples.

Results

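Culture batch 2 was compared with culture batch 1 of JoMa1.3, an established line of mouse neural crest cells, across all genes and whichever siRNA the cells had received. All 4 RNA-seq libraries of the series entered the comparison, 2 from each batch. In either batch 1 library came from cells given a non-targeting control siRNA pool and 1 from cells given a pool against Lkb1 (gene symbol Stk11), so the batches were balanced for siRNA. The 4 cultures carried the genotype WT, were grown in a medium with epidermal growth factor, fibroblast growth factor and chick embryo extract, received siRNA at 60 nM and, per the protocol for progenitors, were collected 72 h after transfection.

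The labels give the batch as a number and a culture name and say nothing more about it. They name jetPRIME and RNAiMax lipofectamine as transfection reagents without tying either to a sample, so a difference in reagent, passage, day or handling cannot be told apart from the batch. JoMa1.3 is 1 line, and lines of the JoMa1 family are kept dividing by a MYC fusion protein that tamoxifen switches on. The labels' medium does not list tamoxifen. The labels do not say whether the libraries of a batch came from separate cultures beyond the siRNA they received. The p-values rest on how unequal the batch difference was under control and Lkb1 siRNA, pooled over genes. That spread may be technical, and it is not a spread between replicate cultures of a batch.

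The libraries held between 17426719 and 19324675 counts over all genes, with between 14436 and 14584 genes counted. Stk11, the siRNA target (gene ID 20869), was at 52.7 and 52.1 FPKM in the control siRNA libraries of batch 1 and batch 2 and at 36.3 and 36.9 FPKM in the Lkb1 siRNA libraries, so every library matched its siRNA label and the target did not separate the batches. Of 24 neural crest markers listed, 18 were in the gene table, and their summed level was between 401 and 425 FPKM in the 4 libraries. The most abundant were Prrx2 at 74.3 to 86.5 FPKM, Twist2 at 43.9 to 54.8 FPKM and Snai2 at 44.6 to 53.3 FPKM. Ednrb was at 0 to 0.02 FPKM, and Sox10, Foxd3, Pax7, Msx2 and Ret were not analysed here.

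Interferons are secreted proteins that act through a complex of transcription factors that binds interferon-stimulated response elements and switches on antiviral genes; most cells keep a low level of these genes without infection. Ribosome biogenesis takes place in the nucleolus, where RNA polymerase I copies rRNA and a large set of assembly factors trims, modifies and folds it. MYC and MYCN drive the genes of these factors in dividing progenitors, including neural crest cells. Growth factors such as epidermal and fibroblast growth factor act through the kinase ERK, which induces immediate early genes and also its own inhibitors, the Sprouty proteins and dual specificity phosphatases.

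Among the genes that passed the test, antiviral and matrix genes were mostly higher in batch 2, and nucleolar assembly factors, ERK feedback inhibitors, D-type cyclins and replication genes mostly lower. The lists behind these groups were chosen with earlier results of these data known. Their counts describe these libraries and are not an independent test. The differences were small. Of 15768 genes in the table, 12222 passed the filter on low counts, and edgeR's quasi-likelihood test with siRNA as a block called 770 of them higher in batch 2 (6.3%) and 809 lower (6.62%) at a Benjamini-Hochberg adjusted p under 0.05. The median absolute log2 fold change of the genes called was 0.23, and 73 of them differed by at least 1.5-fold and 13 by at least 2-fold. With library size alone as the scaling, 59.7% of the calls were higher in batch 2, against 48.8% here, and the median of all genes was 0.02 against 0.01.

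How many genes pass rests on how the spread is estimated. The fit has 1 residual degree of freedom, and its spread is borrowed almost wholly from other genes. DESeq2 with the same terms called 45 genes higher and 62 lower, and edgeR without the siRNA term called 0 in either direction at the adjusted threshold (634 higher and 597 lower at an unadjusted p under 0.05). Every call named below was lost without the siRNA term. Leaving out 1 library, which also drops the siRNA term, gave between 41 and 118 genes higher and between 16 and 118 lower. In these fits, where the batches hold unequal shares of either siRNA, a few of the calls named below turned sign. Cxcl1 was at -0.06 without the control siRNA library of batch 1, Jag2 at 0.03 and Rpl38 at -0.24 without the Lkb1 siRNA library of batch 1, Dusp2 at 0.00457 and Rpl38 at -0.15 without the control siRNA library of batch 2, and Cdca3 at 0.01 and Penk at -0.10 without the Lkb1 siRNA library of batch 2. A test against a fold change of 1.2 left 21 genes higher and 3 lower.

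The control siRNA pair and the Lkb1 siRNA pair share no library, so the batch difference can be read within each. It had the same sign in both pairs for 1574 of the 1579 genes called, a share that the fit itself favours, and for 67.5% of all genes tested. CPM are counts scaled to the library's total after adjustment by edgeR's TMM factors. Across the 10295 genes with a mean of at least 5 CPM, Pearson's r between the pair differences was 0.54 and Spearman's rho 0.52. Genes are not independent replicates, and the 2 libraries of a batch may share their handling. The plot of the pair differences shows the antiviral genes mostly in the upper right corner and the nucleolar genes in the lower left corner.

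**Figure D1:**
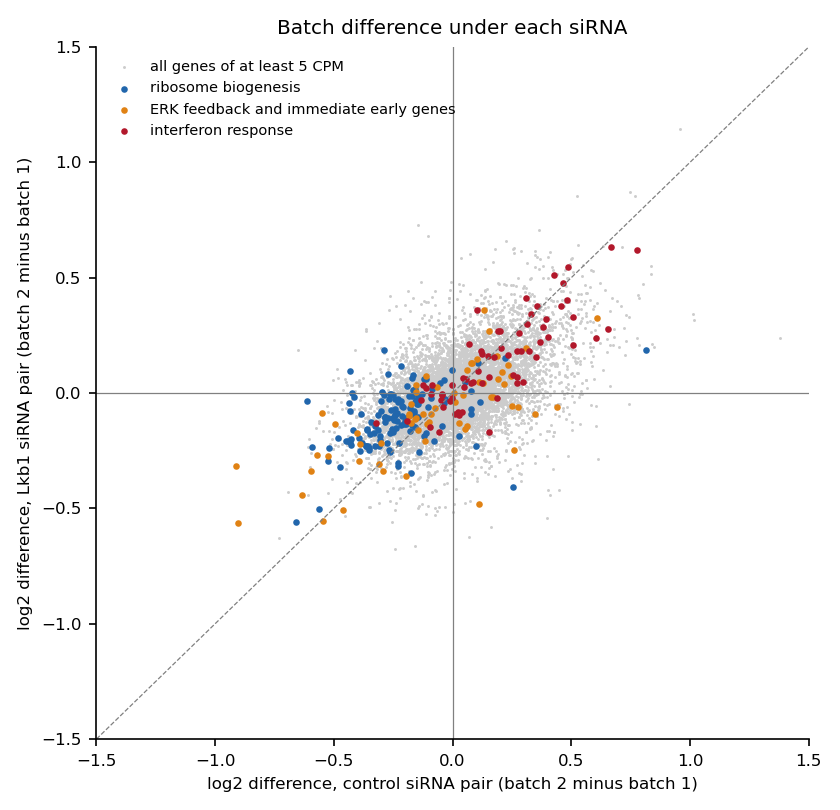
Log2 difference between batch 2 and batch 1 in the Lkb1 siRNA pair (vertical axis) against that in the control siRNA pair (horizontal axis), 1 point per gene with a mean of at least 5 CPM, with 3 gene lists coloured and a dashed line where both are equal. Of the ribosome biogenesis list, 110 of 138 tested members were negative in both pairs, and of the interferon list 58 of 84 were positive in both (the plot leaves out members under 5 CPM).

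The largest rise among genes with a mean of at least 5 CPM was that of Ypel4 (gene ID 241525), a member of the yippee-like family. It was at 3.55 and 3.42 CPM in the control and Lkb1 siRNA libraries of batch 1 and at 7.0 and 7.68 CPM in those of batch 2. Both batch 2 libraries lay at about the same level, well above both batch 1 libraries, and the log2 fold change was 1.07 (SE 0.173, adjusted p = 1.18e-07 by edgeR).

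Other genes with large rises had the batches apart as well. Fat4 (gene ID 329628), a giant cadherin of planar polarity, was at 61.7 and 71.3 CPM in batch 1 and at 95.8 and 111.0 CPM in batch 2, a log2 fold change of 0.64 (SE 0.0552, adjusted p = 7.87e-27, edgeR) with almost the same value in both siRNA pairs. Mybpc1, a myosin-binding protein of slow muscle, rose by 0.82 on the log2 scale, and Kcnj2, an inward rectifier potassium channel, by 0.82. Enpep, an aminopeptidase that cleaves angiotensin, was at 24.4 and 26.2 CPM in batch 1 and at 40.1 and 40.7 CPM in batch 2. Prr16, Otor and Car3, a muscle carbonic anhydrase, rose by 0.70, 0.67 and 0.66 with no overlap between batches.

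Fsbp rose by 0.72, but nearly all of that came from 1 library: it was at 2.35 CPM in the control siRNA library of batch 1 and at 5.81, 6.27 and 6.88 CPM in the other 3. Trim12c rose by 0.70 and, among the falls, Sprr2a2 changed by -0.68 on the log2 scale. Trim12c and Sprr2a2 have near-identical relatives and Fsbp overlaps a neighbouring gene, so the counting could have split their reads.

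Adamts1 (gene ID 11504), a secreted protease of proteoglycans, fell outside the rule for names and was chosen after its values were seen. At 572.0 and 598.2 CPM in batch 1 and 835.6 and 851.6 CPM in batch 2, it was an abundant transcript that rose by 0.53 (SE 0.0457) with the same adjusted p as Fat4, and its batches lay far apart for the spread within either.

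**Figure D2:**
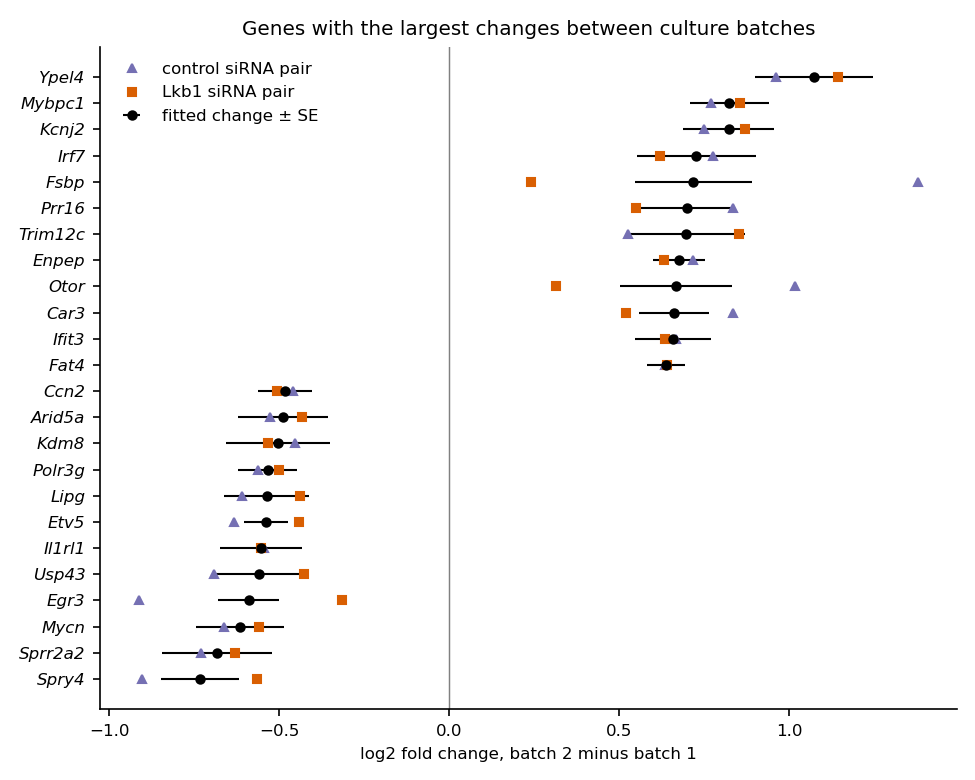
Log2 fold change, batch 2 minus batch 1, of the 12 largest rises and 12 largest falls named by the rule, with the fitted value ± SE in black, the control siRNA pair as triangles and the Lkb1 siRNA pair as squares. Ypel4 stands at 1.07 and Spry4 at -0.73; the pairs lie close together for Fat4 and far apart for Fsbp and Egr3.

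Of the 12 largest falls 5 were members of the ERK list described below (Spry4, Egr3, Il1rl1, Etv5 and Ccn2) and 2 of the ribosome biogenesis list (Mycn and Polr3g). Both lists were chosen with earlier results of these data known. Spry4 (gene ID 24066), a Sprouty inhibitor of receptor tyrosine kinase signalling, was at 14.8 and 15.6 CPM in batch 1 and at 7.88 and 10.5 CPM in batch 2, a log2 fold change of -0.73 (SE 0.115, adjusted p = 4.47e-08, edgeR). Mycn (gene ID 18109), the MYC relative of neural and neural crest progenitors, was at 10.97 and 11.4 CPM in batch 1 and at 6.90 and 7.73 CPM in batch 2. Its log2 fold change was -0.62 (SE 0.130, adjusted p = 1.08e-04, edgeR), and in neither gene did the batches overlap. Usp43, a ubiquitin protease, Lipg, the endothelial lipase, Kdm8, a JmjC-domain protein, and Arid5a, an RNA-binding protein that stabilises inflammatory transcripts, changed by -0.56, -0.54, -0.50 and -0.49.

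The antiviral genes that passed were higher in batch 2. Of 98 interferon response genes listed, 95 were in the table and 84 were tested; 32 of the 84 were called higher and 0 lower, against 6.3% and 6.62% of all genes. Their median log2 fold change was 0.18, beside 0.01 over all genes tested, and 0.19 in the control siRNA pair and 0.17 in the Lkb1 siRNA pair. DESeq2 called 0 of them and edgeR without the siRNA term 0, while 10 and 29 had an unadjusted p under 0.05 in those fits. Without the control siRNA library or the Lkb1 siRNA library of batch 1 the count was 4 and 0; without those of batch 2 it was 0 and 10.

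The core of the response element can be read in some of their promoters. The 250 bases before the RefSeq transcription start (mouse build GRCm38.p6) are printed for the 4 called members with the smallest p that hold the core GAAANNGAA on either strand, with each match in capitals; matches that overlap run together. The printed promoters are shown as examples of the element and were picked for holding it, so they do not stand for the list.
H2-T23, chr17:36032702-36032951, minus strand: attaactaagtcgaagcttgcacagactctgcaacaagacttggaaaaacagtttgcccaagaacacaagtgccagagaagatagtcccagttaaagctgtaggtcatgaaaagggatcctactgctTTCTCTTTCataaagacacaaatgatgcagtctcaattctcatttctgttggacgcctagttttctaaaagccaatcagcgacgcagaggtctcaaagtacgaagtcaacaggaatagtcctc
Ifit3, chr19:34583279-34583528, plus strand: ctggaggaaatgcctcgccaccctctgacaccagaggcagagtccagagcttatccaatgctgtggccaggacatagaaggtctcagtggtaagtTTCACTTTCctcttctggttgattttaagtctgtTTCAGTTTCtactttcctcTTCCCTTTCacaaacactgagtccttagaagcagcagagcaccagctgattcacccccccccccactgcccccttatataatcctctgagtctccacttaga
Ifit1, chr19:34640639-34640888, plus strand: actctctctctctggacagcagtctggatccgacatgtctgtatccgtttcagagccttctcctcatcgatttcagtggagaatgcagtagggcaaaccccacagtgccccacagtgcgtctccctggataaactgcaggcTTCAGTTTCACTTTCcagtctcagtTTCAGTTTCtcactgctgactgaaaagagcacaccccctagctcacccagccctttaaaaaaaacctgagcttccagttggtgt
Bst2, chr8:71537473-71537722, minus strand: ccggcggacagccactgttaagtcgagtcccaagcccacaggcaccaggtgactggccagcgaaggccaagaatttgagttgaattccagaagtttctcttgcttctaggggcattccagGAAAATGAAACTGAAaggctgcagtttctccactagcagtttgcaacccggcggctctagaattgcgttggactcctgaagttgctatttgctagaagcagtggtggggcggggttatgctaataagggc

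Ifit3 and Ifit1 each hold 3 matches, Bst2 holds 2 and H2-T23 holds 1. Of the promoters of all genes tested, 12516 in number for 9761 genes, 6.03% hold a match, against 28.7% of the 87 promoters of the interferon list and 41.4% of the 29 promoters of its members called higher. A match describes the letters in this window and does not show that the site was bound.

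Among the antiviral effectors Ifit3 and Ifit1 had the smallest p-values. Ifit3 (gene ID 15959), which binds viral RNA together with its relatives, was at 11.95 and 8.31 CPM in the control and Lkb1 siRNA libraries of batch 1 and at 19.0 and 13.0 CPM in those of batch 2. Each siRNA's batch 2 library was the higher one and the batches did not overlap, with a log2 fold change of 0.66 (SE 0.112, adjusted p = 5.67e-07, edgeR); reads shared with the near-identical Ifit3b could have been split between them. Ifit1, a sensor of uncapped viral RNA, was at 24.0 and 20.4 CPM in batch 1 and at 32.3 and 29.2 CPM in batch 2, and rose by 0.47.

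Of 43 antiviral effectors tested, 23 rose, with a median of 0.25 over the 43. Dtx3l, a ubiquitin ligase that works with PARP9, was at 19.7 and 19.6 CPM in batch 1 and at 27.1 and 25.5 CPM in batch 2. Rnf213, a giant ubiquitin ligase, rose by 0.25. Bst2, the tetherin that holds budding virus at the cell surface, rose by 0.45, but its batches overlapped: it was at 10.5 and 8.08 CPM in batch 1 and at 16.0 and 9.55 CPM in batch 2. Isg15, the ubiquitin-like modifier, did not pass, at 17.7 and 12.1 CPM in batch 1 and 19.0 and 15.6 CPM in batch 2 (log2 fold change 0.22, adjusted p = 0.144, edgeR); it and Bst2 were named after their values were seen.

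Among the factors that relay the signal 4 of 12 rose and 0 fell. Irf7 (gene ID 54123), which amplifies the response, was at 4.53 and 3.19 CPM in batch 1 and at 7.83 and 4.96 CPM in batch 2, so that the lowest batch 2 library stood just above the highest of batch 1. Its log2 fold change was 0.73 (SE 0.175, adjusted p = 9.64e-04, edgeR). Irf9 and Stat2, which work in the complex that binds the element, rose by 0.36 and 0.26. The median over the 12 was 0.07.

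Of 8 sensors tested, with a median of 0.18, 1 rose: Ddx58, which encodes the RNA sensor RIG-I, was at 53 CPM in both batch 1 libraries and at 62.3 and 59.5 CPM in batch 2, a log2 fold change of 0.20. Dhx58 and Zbp1 had values of 0.46 and 0.57 at levels under 6 CPM, and Sting1 a value of -0.23; none passed.

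In antigen presentation 3 of 15 rose. H2-T23, a non-classical class I molecule read by natural killer cells, was at 35.8 and 32.5 CPM in batch 1 and at 50.03 and 43.1 CPM in batch 2, with no overlap, and its log2 fold change was 0.45 (SE 0.0700, adjusted p = 4.35e-08, edgeR). Tap1 and Tap2, both chains of the peptide transporter, rose by 0.37 and 0.36. H2-K1, a classical class I gene, had a value of 0.15 (adjusted p = 0.113, edgeR). Among 6 genes of the ISG15 system and of feedback, Uba7, the enzyme that activates ISG15, rose by 0.46, and Ube2l6, Socs3 and Socs1, with values of 0.17, 0.07 and -0.16, did not pass.

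**Figure D3:**
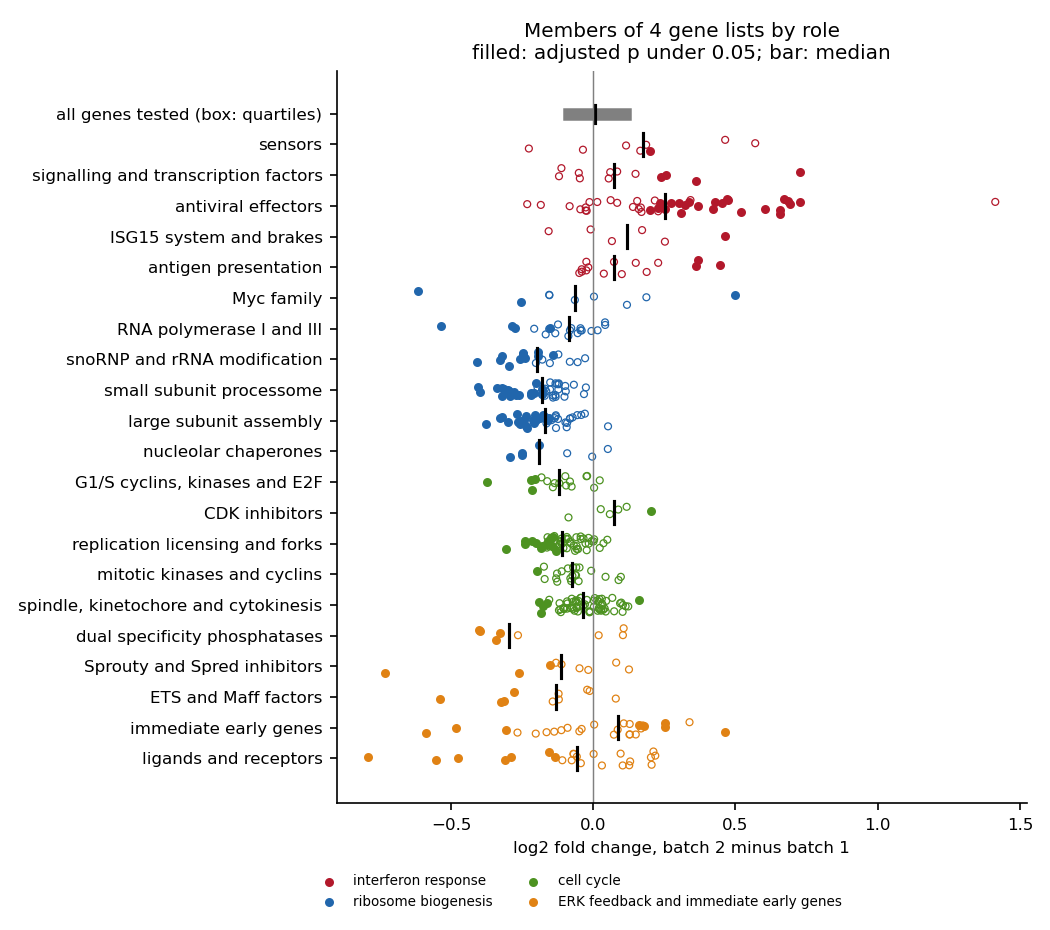
Log2 fold change, batch 2 minus batch 1, of each tested member of 4 lists by role, filled where the adjusted p was under 0.05, with a bar at each role's median and, in the top row, the quartiles of all genes. Antiviral effectors have a median of 0.25, the 41 small subunit processome members are all below 0, and the immediate early genes spread to both sides.

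The nucleolar genes that passed were lower in batch 2, with 1 exception. All 138 ribosome biogenesis genes listed were tested. Of these 65 were called lower and 1 higher, against 6.62% and 6.3% of all genes, and 129 had a negative value. The median log2 fold change was -0.17, and -0.24 in the control siRNA pair against -0.10 in the Lkb1 siRNA pair; whether the pairs differ could not be tested. DESeq2 called 5 of the members lower, Utp4, Wdr36, Nop2, Nop56 and Tcof1, and 55 had an unadjusted p under 0.05 in edgeR without the siRNA term, which called 0. Leaving out the control and the Lkb1 siRNA library of batch 1 gave 3 and 1 members, and leaving out those of batch 2 gave 1 and 30.

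In the small subunit processome, which cuts and folds the precursor of the 18S rRNA, 20 of 41 members fell and all 41 were negative. Ddx21, an RNA helicase of the nucleolus, was at 249.1 and 263.7 CPM in batch 1 and at 178.1 and 230.6 CPM in batch 2. Both batch 2 libraries were lower, the control siRNA library by more, and the log2 fold change was -0.34 (SE 0.0486, adjusted p = 1.58e-09, edgeR). Heatr1, Utp4 and Tsr1, further assembly factors, changed by -0.32, -0.31 and -0.30.

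Of 18 genes of small nucleolar ribonucleoproteins and rRNA modification, 11 fell. Nolc1 (gene ID 70769), the nucleolar phosphoprotein that chaperones these particles, was at 197.6 and 204.5 CPM in batch 1 and at 130.9 and 174.2 CPM in batch 2. It had the largest value of the role, -0.41 (SE 0.0490, adjusted p = 1.97e-13, edgeR), with the batches apart. Nop2, an rRNA methyltransferase, and Nop56, a core protein of box C/D particles, changed by -0.33 and -0.30. Tcof1, the Treacle protein of rRNA gene transcription whose loss in people affects the facial neural crest, was at 167.8 and 175.2 CPM in batch 1 and at 139.7 and 146.9 CPM in batch 2, and changed by -0.26.

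Large subunit assembly had 24 of 43 members lower. Rpf2, which brings in the 5S particle, was at 45.7 and 44.6 CPM in batch 1 and at 31.8 and 37.8 CPM in batch 2, and changed by -0.38. Ppan, Ddx18 and Noc2l changed by -0.33, -0.30 and -0.26. Among 7 nucleolar chaperones Ncl, the abundant nucleolin, changed by -0.19, Grwd1 by -0.29, and Nol9 and Nol10 by -0.25 each.

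Of 20 genes of RNA polymerases I and III 4 fell, with a median of -0.08. Polr3g, the form of an RNA polymerase III subunit found in stem and dividing cells, was at 26.0 and 28.7 CPM in batch 1 and at 17.6 and 20.3 CPM in batch 2. The batches did not overlap, and its log2 fold change of -0.53 (SE 0.0865, adjusted p = 1.23e-07, edgeR) was well beyond that of Polr1b at -0.29, Polr3e at -0.28 or the initiation factor Rrn3 at -0.15.

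In the MYC family Mycn fell as given above, and Myc was at 50.4 and 42.0 CPM in batch 1 and at 44.7 and 33.0 CPM in batch 2. Each siRNA's batch 2 library was the lower, although the batches overlapped, with a log2 fold change of -0.25 (SE 0.0685, adjusted p = 0.00411, edgeR). How reads of the line's MYC fusion were assigned was not tested. Mxd1, which competes with MYC for MAX, rose by 0.50, mostly in the control siRNA pair, and its relative Mxd4 had a value of 0.19 that did not pass.

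The genes of the ribosomal proteins themselves held few calls, where 6.62% of all genes were called lower and 6.3% higher. Of 80 cytosolic ribosomal protein genes 1 was called higher and 0 lower, with a median of 0.02. The call was Rpl38, at 115.6 and 59.7 CPM in batch 1 and at 117.1 and 79.2 CPM in batch 2, where the difference lay in the Lkb1 siRNA pair. Of 78 mitochondrial ribosomal protein genes 8 were called lower (10.3%) and 0 higher, 69 were negative and the median was -0.09. The sign was shared by both siRNA pairs in 67.9% of them, against 67.5% of all genes. Mrps6, Mrpl20 and Mrpl18 changed by -0.26, -0.26 and -0.22.

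The promoter letters of the nucleolar genes were also counted. The MYC-bound E-box CACGTG was in 9.49% of the 137 promoters of the list and in 10.0% of the 60 promoters of the members called lower, near the 8.25% of all promoters. The ETS core CCGGAAGT was in 16.8% of the list's promoters and in 5.83% of all.

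Most cell cycle genes did not pass. Of 163 tested out of 164 listed, 23 were called lower and 2 higher, against 6.62% and 6.3% of all genes; 121 were negative, and the median was -0.07. DESeq2 called 2 of them lower, Ccnd1 and Pcna, and edgeR without the siRNA term 0, with 14 and 19 at an unadjusted p under 0.05. Leaving out 1 library gave between 0 and 2.

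The D-type cyclins carry growth factor signals into the cell cycle. Ccnd1 (gene ID 12443) was at 596.3 and 481.8 CPM in batch 1 and at 437.4 and 391.4 CPM in batch 2, a log2 fold change of -0.37 (SE 0.0472, adjusted p = 1.96e-12, edgeR). Its highest batch 2 library stood below the lowest of batch 1. Ccnd2 changed by -0.22 and Ccnd3 by -0.20, and the repressor E2f8 by -0.21, which made 4 of 17 genes of the G1/S step. Cdkn1b, the CDK inhibitor p27, was at 58.1 and 62.4 CPM in batch 1 and at 68.1 and 70.6 CPM in batch 2 and rose by 0.20; the other 5 inhibitors did not pass, Cdkn2b at 0.12, Cdkn2c at 0.06 and Cdkn2d at -0.09 among them.

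Of 54 replication genes 14 fell and 49 were negative, with a median of -0.11. Pcna, the sliding clamp, was at 308.8 and 337.5 CPM in batch 1 and at 265.1 and 291.1 CPM in batch 2, and both batch 2 libraries were below both of batch 1 (log2 fold change -0.22, SE 0.0483, adjusted p = 2.86e-04, edgeR). Mcm3 and Mcm2, parts of the replicative helicase, changed by -0.24 and -0.18, and Rrm2, which makes deoxyribonucleotides, by -0.24.

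In mitosis 1 of 21 kinases and cyclins fell, Mybl2, the activator of late cell cycle genes, by 0.20 on the log2 scale; Aurkb, Plk1 and Pkmyt1 had values of -0.13, -0.13 and -0.17 and did not pass. Of 65 spindle, kinetochore and cytokinesis genes 4 fell, Nuf2, Ncapg, Cdca3 and Birc5, with values between -0.19 and -0.16, and 1 rose, Aspm at 0.16, which was named after its value was seen. The shares called lower were 4.76% of the kinases and cyclins and 6.15% of the spindle role, against 6.62% of all genes. Those called higher were 0% and 1.54%, against 6.3%. The fall of Cdca3 was that of the Lkb1 siRNA pair, since its control siRNA libraries stood at 103.2 and 102.3 CPM.

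**Figure D4:**
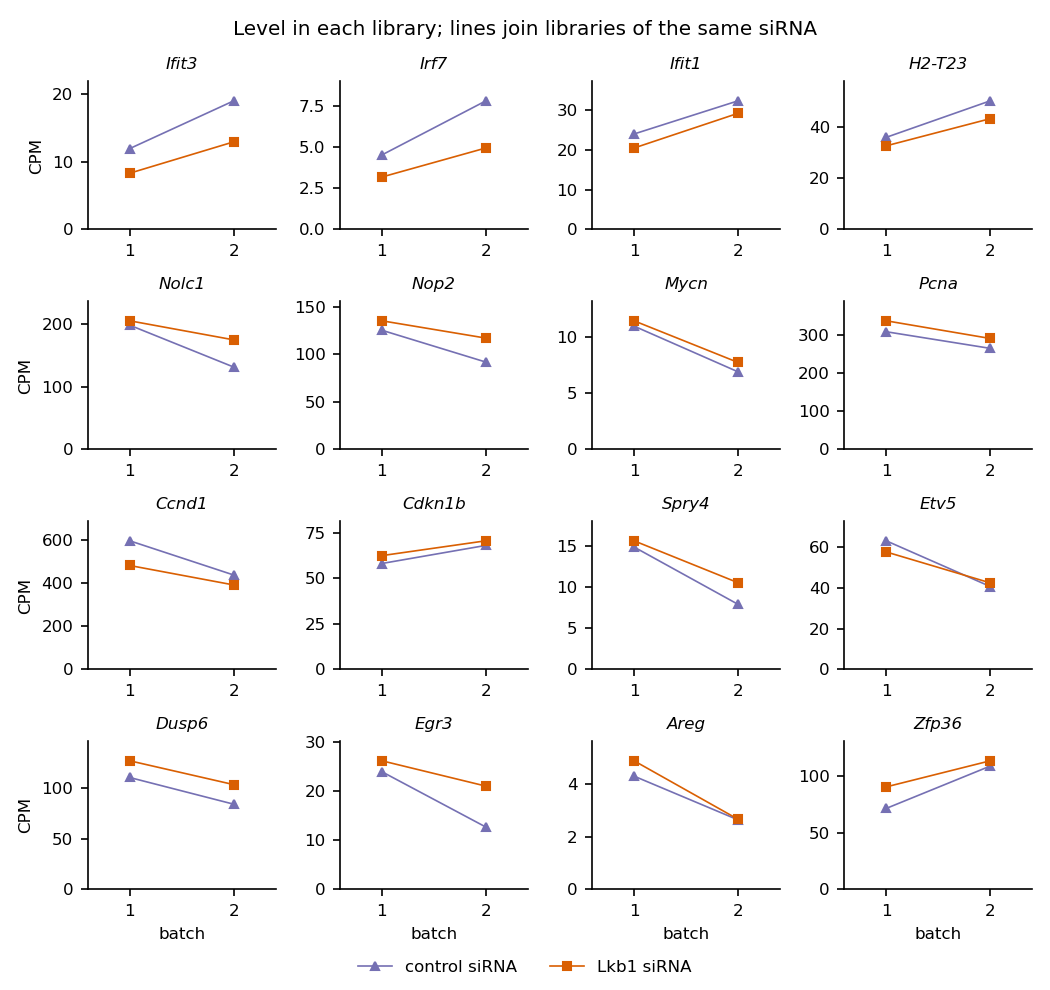
CPM of 16 genes in each of the 4 libraries, batch 1 at left and batch 2 at right in each panel, with lines joining the libraries of the same siRNA and axes that start at 0. Spry4 went from 14.8 and 15.6 to 7.88 and 10.5 CPM and Zfp36 from 71.6 and 90.7 to 109.1 and 113.8 CPM.

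Of 77 ERK feedback and immediate early genes tested out of 79 listed, 21 were called lower and 5 higher, with a median of -0.05. Over all genes 6.62% were called lower and 6.3% higher, so the share called higher, 6.49%, was near that of all genes. The sign was shared by both siRNA pairs in 52 of the 77 (67.5%), as in 67.5% of all genes. The 5 called higher were all immediate early genes, and most members of each role did not pass except the phosphatases, where 4 of 8 did. DESeq2 called 1 lower, Dusp6, and 17 had an unadjusted p under 0.05 without the siRNA term, where 0 passed after adjustment. Leaving out 1 library gave between 4 and 7 lower. The test against a fold change of 1.2 kept 3 of the falls: Spry4, Etv5 and Egr3.

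Dual specificity phosphatases remove phosphate from ERK. Dusp6 was at 110.6 and 127.2 CPM in batch 1 and at 84.2 and 103.6 CPM in batch 2, with no overlap, a log2 fold change of -0.34 (SE 0.0517, adjusted p = 9.76e-09, edgeR). Dusp4, Dusp2 and Dusp5 changed by -0.40, -0.40 and -0.33, which made 4 of 8. Dusp2 overlapped between batches, at 17.5 and 26.7 against 11.7 and 22.1 CPM.

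Of 9 Sprouty and Spred genes and other inhibitors of RAS, 3 fell: Spry4 as given above, Spry2 by 0.26 and Spred2 by 0.15 on the log2 scale. Rasa1, a RAS GTPase activator, had a value of -0.13 (adjusted p = 0.0733, edgeR).

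Etv5 (gene ID 104156), an ETS factor induced by fibroblast growth factor, was at 63.2 and 57.7 CPM in batch 1 and at 40.7 and 42.5 CPM in batch 2. The batches lay well apart, with a log2 fold change of -0.54 (SE 0.0645, adjusted p = 8.10e-14, edgeR). Its relative Etv4 changed by -0.31, Maff, a small MAF protein, by -0.33 and Phlda1, a target of ERK and p53, by -0.28, so that 4 of 10 in this role fell.

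Ligands, receptors and related genes had 7 of 23 lower and 0 higher, and 10 of the 23 had positive values that did not pass. Hbegf, a ligand of the epidermal growth factor receptor, was at 20.03 and 17.1 CPM in batch 1 and at 13.2 and 13.5 CPM in batch 2, and changed by -0.47 (SE 0.101, adjusted p = 1.32e-04, edgeR). Areg, another ligand, was scarce, at 4.31 and 4.90 CPM against 2.64 and 2.67 CPM, and changed by -0.79. Il1rl1, the receptor of interleukin 33, and Plau, the urokinase protease, changed by -0.55 and -0.31.

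The immediate early genes went both ways: 5 of 27 rose and 3 fell. The median of the role was 0.09, but 0.13 in the control siRNA pair and -0.03 in the Lkb1 siRNA pair, so its direction was not shared by the pairs. Zfp36, which destroys AU-rich mRNAs, was at 71.6 and 90.7 CPM in batch 1 and at 109.1 and 113.8 CPM in batch 2, a log2 fold change of 0.46 (SE 0.0532, adjusted p = 4.58e-15, edgeR). Ier2, Egr2, Egr1 and Fosl2 rose by 0.25, 0.25, 0.18 and 0.16. Egr3 fell, at 24.0 and 26.2 CPM against 12.7 and 21.1 CPM (log2 fold change -0.59), as did Ccn2 by 0.48 and Fosl1, a late partner of JUN, by 0.31 on the log2 scale. Egr1, Fosl2 and Fosl1 were named after their values were seen.

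The matrix genes that passed were higher in batch 2, with 1 exception. Of 30 fibrillar collagen and matrix genes 16 rose and 1 fell, where 6.3% of all genes were called higher and 6.62% lower. Their median was 0.16, and 22 were positive in both siRNA pairs. Postn, the periostin of fibroblastic and neural crest-derived mesenchyme (gene ID 50706), was at 404.6 and 288.2 CPM in batch 1 and at 527.5 and 422.2 CPM in batch 2. The batches did not overlap, and the log2 fold change was 0.47 (SE 0.0479, adjusted p = 1.24e-18, edgeR). Thbs2, a matricellular thrombospondin, and Col1a1, the main chain of type I collagen, rose by 0.36 and 0.29. The gene that fell was Spp1, osteopontin, named after its value of -0.18 was seen. In the basement membrane list 5 of 15 rose, led by Lamb2 at 0.27 and Col4a5 at 0.24, then Lama5, Hspg2 and Sparc, which the matrix list also holds. The median of the basement membrane list was 0.00128 in the control siRNA pair and 0.157 in the Lkb1 siRNA pair. Its members had the same sign in both pairs in 9 of 15 cases (60%), against 67.5% of all genes.

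Most amino acid, glycolytic and chaperone genes that passed were lower, where 6.62% of all genes were called lower and 6.3% higher. Of 34 genes of the ATF4 and amino acid response 15 fell and 2 rose, with a median of -0.13: Mthfd2, of mitochondrial one-carbon metabolism, changed by -0.28, Asns, asparagine synthetase, by -0.28 and the arginine transporter Slc7a1 by -0.28. The 2 that rose were Vldlr and Ddit4. Of 19 glycolysis genes 8 fell and 1 rose; Hk2, Slc16a3, the lactate exporter, and Eno1 changed by -0.33, -0.32 and -0.23, and Eno2 rose by 0.51. Of 16 heat shock genes 7 fell and 1, Bag3, rose: Hsph1 was at 215.2 and 204.4 CPM in batch 1 and at 153.6 and 165.9 CPM in batch 2, a log2 fold change of -0.39 (SE 0.0487, adjusted p = 5.00e-13, edgeR), and Hsp90aa1 and Hspd1 changed by -0.27 and -0.24. Vldlr, Eno2 and Bag3 were named after their values were seen. The shares called higher in these lists, 5.88%, 5.26% and 6.25%, were near that of all genes.

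**Figure D5:**
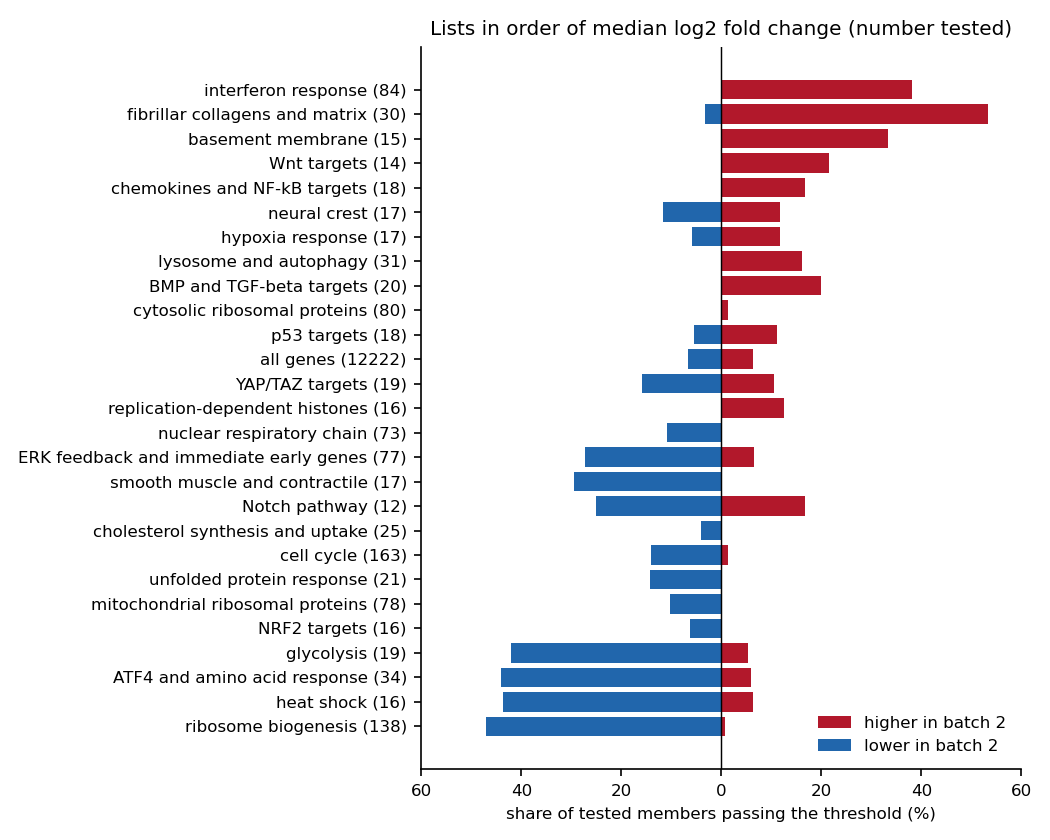
Share of tested members that passed the threshold in each list with at least 10 tested members, higher in batch 2 to the right in red and lower to the left in blue, in order of the lists' median log2 fold change and with the number tested in brackets. For all genes the shares are 6.3% and 6.62%, and the ribosome biogenesis list has 65 of 138 lower and the fibrillar collagen and matrix list 16 of 30 higher.

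In the remaining lists calls were fewer or went both ways, where 6.62% of all genes were called lower and 6.3% higher. Of 73 nuclear genes of the respiratory chain 8 fell, among them Cycs, cytochrome c, by 0.24, Atp5g1 by 0.22 and Cyc1 by 0.19 on the log2 scale. Of 21 unfolded protein response genes 3 fell, Dnajb11, Hyou1 and Hspa5, with values between -0.19 and -0.12. Of 16 NRF2 targets Txnrd1 alone fell, by 0.18 on the log2 scale, a share of 6.25% that was near that of all genes. Hypoxia genes went both ways, with 2 of 17 higher, Ndrg1 and Ddit4 by 0.34 and 0.23, and 1 lower, Egln3 at -0.28. Of 18 p53 targets 2 rose, Trp53inp1 and Sesn1 by 0.54 and 0.31, and 1 fell, Aen, a nucleolar exonuclease, at -0.36.

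Signalling lists held a few calls each, where 6.3% of all genes were called higher and 6.62% lower. The Wnt targets Axin2, Lgr4 and Lgr5 rose by 0.34, 0.33 and 0.26, of 14 tested. In the Notch pathway Notch3, the receptor of mural cells, was at 107.8 and 99.1 CPM in batch 1 and at 150.7 and 119.6 CPM in batch 2 and rose by 0.38, and Notch2 rose, while Rbpj, Jag2 and Hes1 fell, of 12. Of 19 YAP/TAZ targets 2 rose, Rbms3 and Gadd45b, and 3 fell, Ccn2, Ccnd1 and Ankrd1. Of 18 chemokine and NF-kB genes 3 rose: Cxcl12, which guides neural crest cells, was at 182.9 and 145.0 CPM in batch 1 and at 253.6 and 192.2 CPM in batch 2 (log2 fold change 0.44, SE 0.0488, adjusted p = 4.19e-16, edgeR), Cxcl1 rose by 0.34 and Cxcl10 by 0.24. Notch2, Hes1, Gadd45b and Ankrd1 were named after their values were seen.

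Of 20 BMP and TGF-beta genes 4 rose, against 6.3% of all genes: Id3 by 0.30, Tgfb2 by 0.29, Tgfbi by 0.24 and Pmepa1 by 0.28. The lysosome list had 5 of 31 higher, with Grn, the progranulin precursor, up by 0.16 and Gabarap, an autophagosome protein, by 0.17, and Neu1 and Gaa among them. Of 17 contractile genes 5 fell, against 6.62% of all genes. These were Actn1, Tpm1, Vcl, Cnn2 and Tagln, with values between -0.20 and -0.14. Of 16 histone genes H1f2 and H1f0 rose by 0.43 and 0.30; both make linker histones, and H1f0 is the form of resting cells. Pmepa1, Neu1, Gaa, Cnn2 and Tagln were named after their values were seen.

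Markers of cell identity passed in both directions. Of 17 neural crest markers tested 2 rose and 2 fell, against 6.3% and 6.62% of all genes: Zic1 and Pax3 rose by 0.23 and 0.19 and Twist2 and Nes, the progenitor filament nestin, changed by -0.29 and -0.30; Pax3 was named after its value was seen. Summed glial markers were 88.1 and 104.5 FPKM in batch 1 and 106.2 and 122.0 FPKM in batch 2, of which Pmp22, a myelin protein that many cells express, made up most; Pmp22, Egr2 and Gas7 rose by 0.30, 0.25 and 0.24, of 8 tested, while Gfap stayed at or under 0.05 FPKM. Neuronal markers summed to 106.9 and 163.6 FPKM in batch 1 and to 119.0 and 195.6 FPKM in batch 2, most of it Penk, an enkephalin precursor that rose by 0.32; Uchl1 fell by 0.37 on the log2 scale, and Dcx was at or under 0.01 FPKM and Elavl3 at or under 0.02. The part of glial or neuronal cells in the other differences was not tested.

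Markers of other cells were low in both batches. Melanocyte markers summed to between 1.85 and 3.22 FPKM, those of macrophages and leukocytes to between 3.22 and 3.65 FPKM, with Laptm5 at or under 0.03 and Csf1r at or under 0.12. Of the leukocyte markers 2 were tested, Cd14 and Cd68, with log2 fold changes of -0.24 and -0.26, negative in both siRNA pairs. Lyz2, too scarce to be tested, was at 0.14 and 0.08 FPKM in batch 1 and at 0.27 and 0.35 FPKM in batch 2. The part of such cells in the antiviral difference was not tested. Endothelial markers summed to between 12.1 and 14.5 FPKM, nearly all from Egfl7, with 9 of 10 under 1 FPKM in every library, epithelial markers to between 2.66 and 3.48 FPKM and erythroid markers to between 2.76 and 5.08 FPKM; none of the genes tested in these 5 lists passed. In bulk RNA, more cells of a kind and more RNA per cell cannot be told apart.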

How the data were processed

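Bulk RNA-seq libraries of JoMa1.3 cells were compared between the culture batches that the labels name. The submitters' processing notes name RSEM 1.2.8, HISAT2 2.0.4, Bowtie2 2.2.5 and the build GRCm39 without role or order; the annotation is not given in the sources used here. The deposited read counts are the authors' expected counts, between 5.73 and 5.97% of which were not whole in a library, and the deposited FPKM values are the authors' own, relative to length and library size. The TPM, the normalised counts and the transcript table were not used. In the columns used, 14 cells with a doubled decimal point were read with 1 point, and 2 symbols stored as dates were restored through the gene ID.

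Expected counts were rounded, and the test was that of edgeR 4.0.16 under R 4.3.3 (quasi-likelihood F-test, robust, TMM, filterByExpr with a minimum count of 10), with siRNA as an additive block; each SE was taken from its F statistic, with Benjamini-Hochberg adjustment over the 12222 genes tested, with a threshold of 0.05. Differences within a siRNA pair are log2 CPM with a prior count of 2. Alternatives used limma 3.58.1 on log2(FPKM + 1) and log2(FPKM + 0.1), which understate changes of low genes, DESeq2 1.42.0, other scalings and filters, and fits without 1 library.

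On counts simulated for this comparison over 12150 genes, the test recovered 25 of 50 genes planted at 1.2-fold, 36 at 1.5-fold, 39 at 2-fold and 50 at 3-fold, with 2 false calls. These counts were drawn with the spread that the same fit had estimated and with no siRNA difference. The false calls therefore cannot show whether that spread is too small for these cultures. The labels' batch numbers pair the libraries, and here the batch is the contrast and siRNA the block.

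The members and the 33 lists were chosen with earlier results of these data known. They name 1178 genes, of which 1135 were in the table. Lists are described by counts and medians and were not tested as sets. Genes named are the 12 most changed each way among those passing whose mean reached 5 CPM and whose siRNA pairs had the same sign, skipping predicted genes, the 4 members with the smallest p per role of the interferon, ribosome biogenesis, cell cycle and ERK lists, the 3 per other list, Stk11 and Myc; the others were chosen after their values were seen, and some genes within the rule are not reported here. Gene IDs matched the RefSeq gene table (GRCm38.p6) for 15666 of 15768 genes; promoters are those of RefSeq on that build, and motifs were searched on both strands.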

Additional observations from a re-analysis of the deposited data

Results flagged for a closer look

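In 3 lists with at least 5 tested members the median batch difference pointed in opposite directions under the 2 siRNAs, each measured in 1 pair of libraries, and the difference was not tested because no residual degree of freedom remains. For BMP and TGF-beta targets the median was 0.22 in the control siRNA pair and -0.10 in the Lkb1 siRNA pair, 0.32 apart. For the neural crest markers the medians were 0.14 and -0.04, 0.18 apart. For the histones they were -0.03 and 0.07, a difference of -0.10.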

How the results depend on the processing

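Counts are given in the order all genes higher, all genes lower, interferon higher, ribosome biogenesis lower, cell cycle lower and ERK lower, reported as 770, 809, 32, 65, 23 and 21. DESeq2 gave 45, 62, 0, 5, 2 and 1. Without the siRNA term (no replicate block) edgeR gave 0 for each. The test against a fold change of 1.2 gave 21, 3, 1, 0, 0 and 3. Limma on log2(FPKM + 1) gave 39, 16, 3, 1, 1 and 3, and on log2(FPKM + 0.1) 79, 36, 6, 4, 1 and 5. Leaving out 1 library, without the siRNA term, gave ranges of 41 to 118, 16 to 118, 0 to 10, 1 to 30, 0 to 2 and 4 to 7, where a lone library is assumed to vary like the others. The cause of these differences in count was not tested. Library size, DESeq2 size factors, both other filters and the length trend kept all 6 counts within 1.5 times. The list medians kept their sign under every alternative run, with ranges of 0.11 to 0.23 for interferon, -0.25 to -0.10 for ribosome biogenesis, -0.08 to -0.05 for the cell cycle and -0.09 to -0.03 for ERK.

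Single genes changed sign as follows, none past the threshold there. Stk11 was at 0.000227 with library size alone and at 0.00313 and 0.00327 with limma, and Egfl7 at 0.00649 with the length trend removed. Without a library the values ran, as lowest and highest over the 4 fits, as Cd68 -0.546 to 0.0646, Cdca3 -0.384 to 0.00829, Cdkn2b -0.0129 to 0.234, Cdkn2d -0.194 to 0.00607, Cxcl1 -0.0556 to 0.794, Cyp51 -0.228 to 0.0207, Dusp2 -0.917 to 0.00457, Egfl7 -0.181 to 0.147, Hba-a1 -0.642 to 0.162, Jag2 -0.39 to 0.0278, Penk -0.105 to 0.678, Rpl38 -0.24 to 0.718, Rps15 -0.339 to 0.109, Rps28 -0.0212 to 0.267, Socs1 -0.337 to 0.00218 and Stk11 -0.309 to 0.296. Among 177 named genes 146 lost their call without the siRNA term.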

Other observations

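Differences between the batches rose slightly with the effective length of the gene's transcripts. Across genes, Spearman's rho between the log2 fold change and the length was 0.10, with a median of -0.02 over the shortest 10% of genes and 0.04 over the longest 10%. With that trend removed from each library, 738 genes were called higher and 757 lower by edgeR, 684 and 692 of which were also called as reported.

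Promoters of the cell cycle list held the CCAAT box more often than all promoters, 61.2% against 35.9%, and the element TTTGAA in 25.7% against 10.8%. The E2F core TTTCCCGC was in 5.92% of them and in 1.71% of all. The AP-1 core TGANTCA was in 7.60% of the 79 promoters of the ERK list, in 11.5% of those of the interferon list and in 4.47% of all promoters, and the ETS core CCGGAAGT in 2.53% of those of the ERK list and in 5.83% of all.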
